A study of Homo sapiens with 12 samples.

Results

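The genes described here are 10 tubulin genes of 12616 genes measured by RNA sequencing in MeWo and SkMel28, a pair of human melanoma cell lines. They comprise 7 beta tubulin genes (TUBB, TUBB2A, TUBB2B, TUBB3, TUBB4A, TUBB4B and TUBB6) and 3 alpha tubulin genes (TUBA1A, TUBA1B and TUBA1C). They were found by symbol in the deposited table, where all 10 stood at 1 or more normalised reads per 1000000 in every library. The set was chosen from earlier results of these data, in which TUBB2B stood out for its difference in response between the lines, so its values are given as a description and with no test. Each line carried a hairpin RNA against MITF that is induced by doxycycline (Dox), and was grown for 8 days with 0 or 1 µg/ml Dox. This gave 4 groups of 3 libraries: MeWo control, MeWo Dox, SkMel28 control and SkMel28 Dox. All cells, controls included, carried the hairpin, and no line was given Dox without it, so that knockdown of MITF and a response to Dox itself cannot be told apart. The line and its medium cannot be told apart either, because the labels give EMEM for MeWo and RPMI for SkMel28. Nothing says whether the 3 libraries of a group came from separate cultures on separate days, and p-values then measure the spread between these libraries only.

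Microtubules are hollow polymers of alpha and beta tubulin heterodimers that build the mitotic spindle, carry vesicles and shape cell processes. Vertebrates encode each subunit in several genes, the isotypes, whose proteins are nearly identical except at the acidic carboxy-terminal tail, which faces outward and is modified by glutamylation and, in most alpha isotypes, by removal of the last tyrosine. TUBB, TUBB4B, TUBA1B and TUBA1C are expressed in most dividing cells, whereas TUBB2A, TUBB2B, TUBB3, TUBB4A and TUBA1A are abundant in the nervous system, and TUBB3 serves as a marker of neurons. MITF is the transcription factor that governs the melanocyte lineage, a lineage of the neural crest whose pigment granules travel on microtubules.

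The ends of the coding sequences of 4 beta genes are shown because the isotypes differ most there. Reads of 3′ end sequencing come from the end of the transcript, which lies downstream of these bases at a distance that differs between genes. Each line below holds the last 60 coding bases of 1 gene, stop codon included, all in the last exon (hg38, GENCODE 44 canonical transcript), and capitals mark bases not identical to TUBB2A after a global alignment.
TUBB2A (chr6:3153863-3153922, − strand): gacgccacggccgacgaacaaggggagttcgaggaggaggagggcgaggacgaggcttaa
TUBB2B (chr6:3224751-3224810, − strand): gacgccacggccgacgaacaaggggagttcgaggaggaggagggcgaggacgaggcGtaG
TUBB (chr6:30724338-30724397, + strand): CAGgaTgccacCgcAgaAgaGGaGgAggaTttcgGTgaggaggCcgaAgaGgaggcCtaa
TUBB3 (chr16:89935745-89935804, + strand): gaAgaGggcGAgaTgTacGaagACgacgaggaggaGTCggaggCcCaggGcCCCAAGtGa
TUBB2B differed from TUBB2A at 2 of these 60 bases, TUBB at 18 and TUBB3 at 22. Over the whole coding sequence TUBB2A and TUBB2B, which lie 65779 bases apart on chromosome 6, differed at 25 of 1338 bases and 2 of 445 encoded residues. TUBA1A and TUBA1B, both on chromosome 12, differed at 38 of 1356 bases and 2 of 451 residues. TUBB3 was the farthest of the beta genes from TUBB2A after TUBB6, with 40 residues not identical against 42.

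These near-identities limit which reads can be assigned to 1 gene. In the last 300 bases of the canonical transcripts, where such reads fall, TUBB2A and TUBB2B were only 51.3% identical, and TUBA1A and TUBA1B 62.7%. Of the 251 stretches of 50 bases that this window holds, none of TUBB2B, TUBB, TUBB4A, TUBB6 or TUBA1C also occurred in another gene's transcripts. TUBB2A shared 50 with TUBB2B, and TUBA1A and TUBA1B shared 35 with each other, and TUBB4B 18 with TUBB4A. TUBB3 shared 246, all with an unnamed gene model (ENSG00000198211) on the same strand. That model runs from within MC1R to near the end of the canonical TUBB3 transcript (chr16:89919165-89936092). Reads of the joined transcript and of TUBB3 itself therefore cannot be separated in that window. How the authors treated reads that match several genes is not given in the sources used here, nor is the strand setting. Without it, reads of TUBB4B and of FAM166A, and those of TUBA1A or TUBA1B and of the antisense TUBA1B-AS1, which cover these 3′ ends on the opposite strand and are not listed in the table, cannot be told apart.

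The bases before the transcription start are shown for TUBB2B and for the 3 members called in both lines, TUBB2A, TUBA1A and TUBA1C, since MITF binds E-box motifs. Each line gives the 250 bases upstream of the start in RefSeq (GRCh38.p14), and capitals mark CACGTG, the E-box searched on both strands together with CATGTG.
TUBB2B (chr6:3227654-3227903, − strand): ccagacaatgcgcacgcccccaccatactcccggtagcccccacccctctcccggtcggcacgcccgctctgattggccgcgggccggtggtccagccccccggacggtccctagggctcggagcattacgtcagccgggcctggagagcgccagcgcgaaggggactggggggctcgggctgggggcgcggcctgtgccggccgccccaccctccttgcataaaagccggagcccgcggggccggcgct
TUBB2A (chr6:3157545-3157794, − strand): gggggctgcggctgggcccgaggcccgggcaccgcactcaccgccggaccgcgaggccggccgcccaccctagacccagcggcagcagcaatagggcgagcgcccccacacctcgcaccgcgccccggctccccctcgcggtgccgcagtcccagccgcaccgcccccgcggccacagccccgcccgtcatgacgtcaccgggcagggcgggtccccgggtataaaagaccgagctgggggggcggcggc
TUBA1A (chr12:49189081-49189330, − strand): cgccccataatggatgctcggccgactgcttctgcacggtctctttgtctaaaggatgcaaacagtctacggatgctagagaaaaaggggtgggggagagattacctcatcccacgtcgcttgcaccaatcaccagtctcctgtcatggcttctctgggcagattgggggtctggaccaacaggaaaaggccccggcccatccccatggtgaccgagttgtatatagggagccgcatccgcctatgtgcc
TUBA1C (chr12:49264832-49265081, + strand): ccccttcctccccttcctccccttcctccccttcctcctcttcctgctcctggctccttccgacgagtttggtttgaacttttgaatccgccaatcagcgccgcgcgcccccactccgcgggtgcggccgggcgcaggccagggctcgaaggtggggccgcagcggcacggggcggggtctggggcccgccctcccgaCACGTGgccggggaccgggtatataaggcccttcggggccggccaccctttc
In windows from 250 bases before to 50 bases after each start, CACGTG was found at 3 of the 10 genes, TUBA1C (52 bases before the start), TUBB4A (179 bases before) and a second start of TUBB (49 bases before), and CATGTG at none. Of 35116 such windows over all genes, 7.26% held CACGTG and 11.1% held CATGTG. TUBB, TUBB3, TUBB4A, TUBB6 and TUBA1C had more than 1 start, and so more than 1 window each. The count of 3 of 10 genes is therefore not on the same scale as these shares of windows. These matches are letters in a window, and no binding was measured in these libraries.

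Libraries held 2568187 to 3714608 reads, and 1 read was worth 0.278 to 0.389 normalised reads, so that the members had between 10 reads (TUBB2B in SkMel28) and 7958 reads (TUBA1B in SkMel28 control) in a library. MITF itself spanned 657 to 708 in the MeWo controls against 354 to 451 with Dox, and 739 to 861 against 552 to 578 in SkMel28, and it was called lower in both lines (adjusted p 6.49e-05 and 0.00705), a call that SkMel28 lost without the mean-variance trend of the fit. All 8 melanocyte markers were listed, and their summed level was 13080.2 to 13277 without and 6706 to 8414 with Dox in MeWo, and 11490.4 to 12844 without and 7657 to 8001 with it in SkMel28. Of the markers of other cell types, none of 3 leukocyte and none of 3 endothelial genes was listed. Fibroblast genes gave 2 of 5 (DCN and LUM, with COL1A1, COL3A1 and PDGFRB not listed), summing to 41.5 to 47.8 in MeWo control, 9.85 to 19.2 in MeWo Dox, and 10.9 to 13.3 without and 6.04 to 8.91 with Dox in SkMel28. Keratinocyte genes gave KRT10 alone of 4, at 131 to 153 and 145 to 159.5 in MeWo without and with Dox, and at 86.2 to 104 and 111 to 117 in SkMel28. Whether these shifts bear on the tubulin values was not tested. Replicates correlated at 0.979 to 0.985 across genes in 3 groups and at 0.960 to 0.976 in MeWo Dox, where replicate 1 stood apart for several tubulins, so results that rest on it are given with and without it. In RNA from whole cultures, fewer cells of a kind and less RNA per cell cannot be told apart.

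Without Dox, both lines expressed the same members at the top. Because 3′ end sequencing yields about 1 read per transcript, whatever its length, levels of different genes are compared here without dividing by length, within the limits of how each 3′ end was annotated. TUBA1B was the most abundant in MeWo control (1908, 1626 and 1518 normalised reads) and in SkMel28 control (2216, 2221 and 2618). TUBB came next at 993, 909.9 and 928 in MeWo and 1580.1, 1734 and 1936 in SkMel28, followed by TUBA1C at 732, 602 and 581 and 830.0, 802 and 999.8. In MeWo control the order then ran TUBA1A, TUBB6, TUBB4B, TUBB3, TUBB2A, TUBB4A and TUBB2B, and no neighbours in the order of 10 overlapped between libraries. In SkMel28 control it ran TUBB6, TUBB2A, TUBA1A, TUBB4B, TUBB3, TUBB4A and TUBB2B, with overlap between TUBB2A and TUBA1A, between TUBA1A and TUBB4B, and between TUBB4A and TUBB2B. In MeWo Dox, TUBA1A stood above TUBA1C, though their libraries overlapped, and TUBB2B stood above TUBB4A with no overlap.

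**Figure D1:**
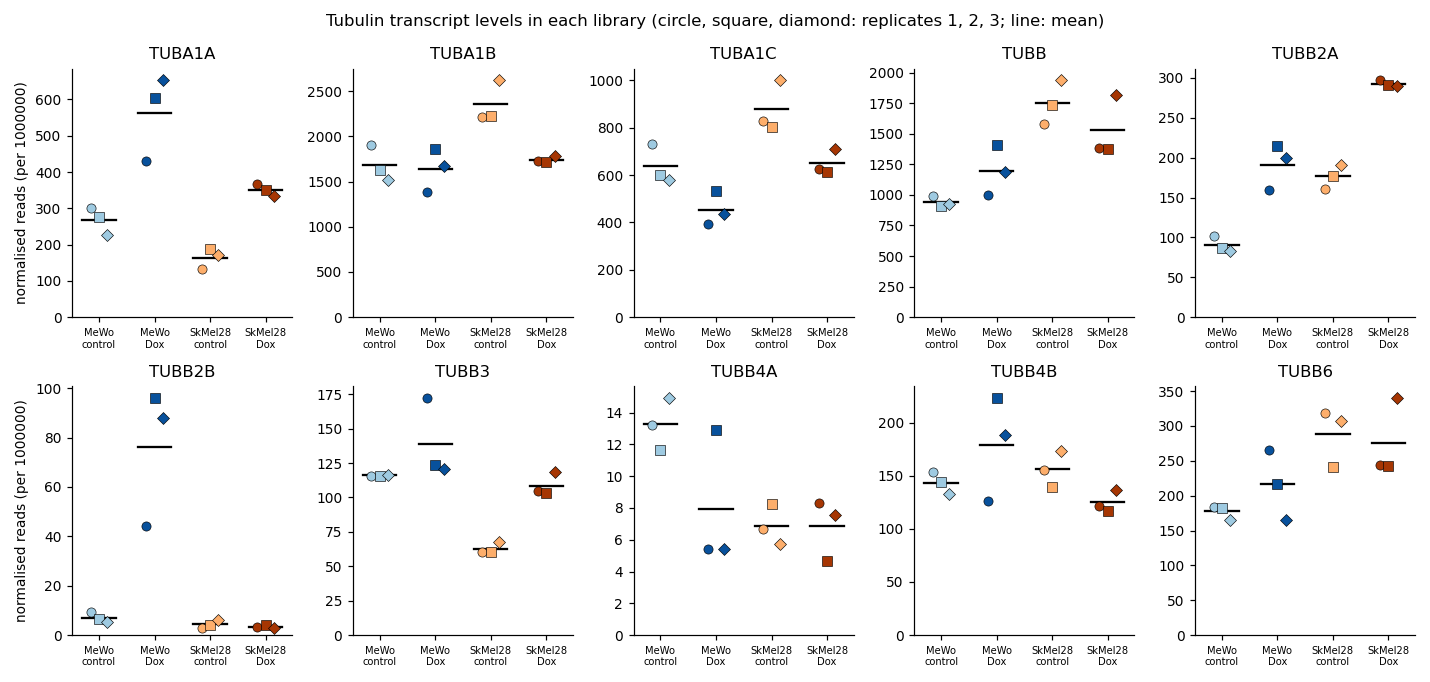
Normalised reads per 1000000 (y axis, linear from 0, scaled per panel) of the 10 tubulin genes in the 4 groups, 1 point per library (circle, square and diamond for replicates 1, 2 and 3) and a line at the mean of 3. TUBA1A and TUBB2A sit higher with Dox in both lines, TUBB2B stands at 44.05, 95.9 and 88.1 in MeWo Dox, and its SkMel28 libraries all sit at 6.13 or below.

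The first comparison asked how the untreated lines differed, and it shares its control libraries with the comparisons that follow. SkMel28 control exceeded MeWo control for 5 of the 9 genes tested and fell short for 3 (limma, 8 of 9 called at an adjusted p under 0.05), beside 51.4% of all genes called, 26.6% higher and 24.8% lower. The members higher in SkMel28 were TUBB2A (log2 difference 0.95), TUBB (0.89), TUBB6 (0.69), TUBA1B (0.48) and TUBA1C (0.46). Those lower were TUBB3 (−0.88), TUBB4A (−0.86) and TUBA1A (−0.71). Adjusted p ran from 6.94e-06 for TUBB2A to 0.0225 for TUBB4A, whose call was lost without MeWo control replicate 1 (−0.86, adjusted p 0.0539) or 3 (−0.78, adjusted p 0.0765) and without SkMel28 control replicate 1 (−0.85, adjusted p 0.0551) or 3 (−0.75, adjusted p 0.0817). The TUBA1C call was lost without SkMel28 control replicate 3 (0.36, adjusted p 0.0513). TUBB4B was not called (0.12, adjusted p 0.567). Of the mitosis genes, 20 of 24 were called higher in SkMel28 control, with a median log2 difference of 1.01 against 4.02e-05 over all genes. Whether this bears on the tubulin differences, which went both ways, was not tested.

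The second comparison asked what changed with Dox in MeWo. Of the 9 genes tested, TUBB2A and TUBA1A rose, TUBA1C fell and 6 were not called, beside 16.7% of all genes called, 8.58% higher and 8.12% lower. The median log2 change of the 9 was 0.26, against 0 over all genes. The third comparison asked the same of SkMel28, where TUBB2A, TUBB3 and TUBA1A rose, TUBA1B and TUBA1C fell and 4 were not called, beside 10.9% of all genes called, 5.88% higher and 5.04% lower. The median of the 9 was −0.078, against 0.0029 over all genes. The edgeR and DESeq2 tests on recovered reads likewise called 3 members in MeWo and 5 in SkMel28.

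Among the alpha genes, TUBA1A rose about 2-fold in both lines. TUBA1A (chr12:49184686-49189080, − strand) encodes the alpha tubulin that predominates in newly formed neurons. Its MeWo libraries went from 300.05, 275 and 227 without Dox to 431, 603 and 652 with it (267 ± 37.3 against 562 ± 116, mean ± SD, n = 3; log2 change 1.06, SE 0.16, adjusted p 1.58e-04). In SkMel28 they went from 133, 188 and 171 to 367, 351 and 334 (164 ± 28.5 against 351 ± 16.8; log2 change 1.105, SE 0.16, adjusted p 1.57e-04). In each line every Dox library lay above every control library. The ratio of means was 2.10 in MeWo and 2.14 in SkMel28, and the log2 changes differed by −0.049 (SE 0.22, adjusted p 0.917).

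TUBA1C (chr12:49188736-49274600, + strand), a broadly expressed isotype whose longest model overlaps the start of TUBA1A on the opposite strand, away from both 3′ ends, went the other way. In MeWo it fell from 732, 602 and 581 to 394, 531 and 437 (log2 change −0.49, SE 0.13, adjusted p 0.01603), with no overlap. In SkMel28 it fell from 830.0, 802 and 999.8 to 626, 613 and 712 (log2 change −0.43, SE 0.13, adjusted p 0.0459), again with no overlap. The MeWo call was lost without control replicate 1 (−0.39, adjusted p 0.0874) or Dox replicate 3 (−0.47, adjusted p 0.0558), without the mean-variance trend (adjusted p 0.06799) and with MeWo fitted alone (adjusted p 0.114). With the libraries scaled to the spike-ins the MeWo change was −0.22, adjusted p 0.431. The SkMel28 call was lost without any 1 of the 6 SkMel28 libraries and without MeWo control replicate 2 or 3, at changes of −0.33 to −0.49 and adjusted p 0.0503 to 0.217, and it was lost with a pseudocount of 0.1 (−0.43, adjusted p 0.0579).

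TUBA1B (chr12:49127782-49131397, − strand), the main alpha isotype of dividing cells, was called in SkMel28, and the difference of its response between the lines was not called (0.38, SE 0.18, adjusted p 0.184). Its SkMel28 libraries fell from 2216, 2221 and 2618 to 1724, 1719.9 and 1784 (log2 change −0.43, SE 0.12, adjusted p 0.0345), with every Dox library below every control. This call too was lost without any 1 of the 6 SkMel28 libraries and without MeWo control replicate 2, at changes of −0.35 to −0.47 and adjusted p 0.0544 to 0.167. In MeWo the values were 1908, 1626 and 1518 without and 1389, 1856 and 1669.8 with Dox (log2 change −0.044, SE 0.12, adjusted p 0.858), and they overlapped. Beside these values, the summed level of the 24 mitosis genes went from 1842–1915 to 1144–1225 with Dox in SkMel28, and in MeWo from 1004–1049 to 725–929.7, and the part of proliferation in the tubulin changes was not tested.

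Among the beta genes, TUBB2A was the member that rose in both lines. TUBB2A (chr6:3153497-3157544, − strand) is a major beta isotype of neurons. In MeWo its libraries stood at 102, 87.03 and 83.2 without Dox and 159, 215 and 200.2 with it (90.7 ± 9.88 against 191 ± 28.7, n = 3; log2 change 1.06, SE 0.13, adjusted p 1.39e-05). In SkMel28 they stood at 161, 177 and 191 and 297, 291 and 290.4 (176 ± 15.01 against 293 ± 3.54; log2 change 0.73, SE 0.13, adjusted p 9.25e-04). No Dox library overlapped the controls in either line, and both calls held in all 23 alternatives fitted for the gene on its own. The larger change in MeWo was not called different (0.33, SE 0.18, adjusted p 0.259), although it was called without MeWo Dox replicate 1 (0.46, adjusted p 0.0285).

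TUBB2B (chr6:3223324-3231730, − strand), an isotype of migrating and growing neurons, was scarce in 3 of the 4 groups. MeWo control held 9.21, 6.605 and 5.18 and MeWo Dox 44.05, 95.9 and 88.1 normalised reads. SkMel28 control held 2.78, 4.13 and 6.13 and SkMel28 Dox 3.27, 4.01 and 3.02. The MeWo Dox libraries thus held 138 to 260 reads of the gene each, those of MeWo control 16 to 32, and those of SkMel28 10 to 16, and replicate 1 was the lowest of the MeWo Dox libraries and still above every library of the other groups. The ratio of means was 10.9 in MeWo and 0.790 in SkMel28, or 3.22 and −0.23 on the log2(value + 1) scale, a scale that understates the ratio of a low gene. These values selected the gene and are not tested. TUBB2B made up 7.07% ± 1.21 of the summed TUBB2A and TUBB2B reads in MeWo control, 27.7% ± 5.23 in MeWo Dox, 2.36% ± 0.708 in SkMel28 control and 1.16% ± 0.176 in SkMel28 Dox.

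**Figure D2:**
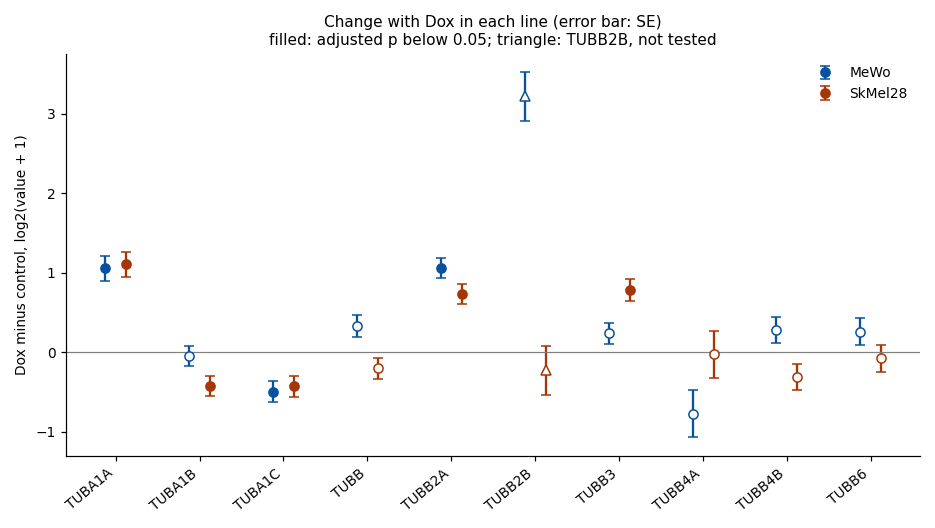
Log2 change with Dox (y axis, log2(value + 1), Dox minus control) of each of the 10 genes in MeWo (blue) and SkMel28 (brown), with bars of 1 SE. Filled points passed the test and triangles mark TUBB2B, which was not tested; TUBA1A lies near 1.06 and 1.105 in the lines, TUBA1C near −0.49 and −0.43.

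TUBB3 (chr16:89921392-89938761, + strand), the neuronal beta isotype, rose in SkMel28 from 60.7, 60.3 and 67.4 to 104, 103 and 118 (log2 change 0.78, SE 0.14, adjusted p 9.34e-04), with no overlap. In MeWo, where the controls were already at 116, 116 and 117, the Dox libraries stood at 172, 124 and 121 and the change was not called (log2 change 0.24, SE 0.14, adjusted p 0.253). Dox replicate 1 alone was far above the controls, and without it the log2 change was 0.072, adjusted p 0.667. The changes of the lines differed by −0.54 (SE 0.19, adjusted p 0.0893), which was not called, and by −0.71 without that library (adjusted p 0.001797), which was. MC1R, whose joined transcript shares the 3′ end of TUBB3, was at 18.8 ± 1.34 and 24.99 ± 4.06 in MeWo and at 41.6 ± 4.41 and 36.1 ± 4.92 in SkMel28, without and with Dox, and was called in neither line (adjusted p 0.127 and 0.516).

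TUBB (chr6:30717435-30725538, + strand), the most abundant beta isotype, was called in neither line. In MeWo it went from 993, 909.9 and 928 to 1001, 1408 and 1187 (log2 change 0.33, SE 0.14, adjusted p 0.109), where no library overlapped but Dox replicate 1 stood just above the highest control. Without that library it was called (0.45, adjusted p 0.00711), and likewise with the libraries scaled to the spike-ins (0.61, adjusted p 0.0192), which moved the median of all genes by 0.22. In SkMel28 the values were 1580.1, 1734 and 1936 and 1385, 1378 and 1817 (log2 change −0.204, SE 0.14, adjusted p 0.403), and they overlapped.

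TUBB4B (chr9:137241287-137243707, + strand), a broadly expressed isotype also found in cilia, was called in neither line. MeWo control stood at 154, 144 and 133 and MeWo Dox at 126, 223 and 188 (log2 change 0.28, SE 0.16, adjusted p 0.263), with replicate 1 below every control. Without replicate 1 the gene was called (0.51, adjusted p 0.00293), and so it was with spike-in scaling (0.55, adjusted p 0.0497). In SkMel28 it stood at 155, 139.6 and 173 and 121, 117 and 137 (log2 change −0.32, SE 0.16, adjusted p 0.259), with no overlap.

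TUBB6 (chr18:12307669-12344320, + strand), the beta isotype most divergent from TUBB, stood at 184, 183 and 166 and 266, 217 and 166 in MeWo and at 319, 241 and 307 and 243, 242 and 339.7 in SkMel28, without and with Dox. It was called in neither (log2 change 0.26, adjusted p 0.317, and −0.078, adjusted p 0.838). TUBB4A (chr19:6494319-6502848, − strand), an isotype of myelinating glia and neurons, had 14 to 46 reads a library. It stood at 13.2, 11.7 and 14.9 and 5.43, 12.9 and 5.42 in MeWo, where Dox replicate 2 alone lay among the controls, and was not called with it (log2 change −0.77, SE 0.297, adjusted p 0.0846) but was without it (−1.15, adjusted p 0.009001). In SkMel28 its means were 6.89 ± 1.26 and 6.85 ± 1.92.

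The fourth comparison asked whether the lines responded differently. None of the 9 genes tested was called by limma, beside 7.09% of all genes called, 3.71% with a larger change in MeWo and 3.38% with a smaller one. The edgeR and DESeq2 tests also called 0. An unadjusted p under 0.05, for which no share of all genes is given here, was reached by 4 genes (TUBB, TUBB3, TUBB4B and TUBA1B). The largest differences among them were 0.597 for TUBB4B (SE 0.23, adjusted p 0.119) and 0.54 for TUBB (SE 0.19, adjusted p 0.0969), beside that of TUBB3 above. Without MeWo Dox replicate 1, TUBB, TUBB2A, TUBB3, TUBB4B and TUBA1B were called, 5 of 9, beside 24.7% of all genes in that fit. Without SkMel28 Dox replicate 3, TUBB was called (0.67, adjusted p 0.0483). The difference for TUBB2B was 3.45 (SE 0.43), given as a description.

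With Dox TUBA1A made up a larger share and TUBA1B a smaller share of the alpha pool in both lines. Shares are of the sum of the 3 alpha or 7 beta genes in a library, given with no test. TUBA1A made up 10.3 ± 0.635% of the alpha pool in MeWo control and 21.1 ± 2.24% in MeWo Dox (n = 3). In SkMel28 it made up 4.85 ± 0.895% and 12.8 ± 0.896%. TUBA1B stayed the main alpha gene throughout, at 65.04 ± 0.197% and 61.8 ± 1.13% in MeWo and 69.3 ± 0.3398% and 63.5 ± 0.526% in SkMel28. TUBA1C had 24.6 ± 0.516% and 17.1 ± 1.13% in MeWo, and 25.8 ± 0.744% and 23.7 ± 1.29% in SkMel28. The Dox and control libraries did not overlap for any of these shares except that of TUBA1C in SkMel28. Shares of 1 pool depend on each other, so these are not separate results. The level of TUBA1B itself was not called in MeWo (limma log2 change −0.044, adjusted p 0.858).

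With Dox TUBB made up a smaller share of the beta pool and the TUBB2A and TUBB2B pair a larger share in both lines. TUBB held 63.3 ± 0.862% of the beta pool in MeWo control and 59.5 ± 2.67% in MeWo Dox. In SkMel28 it held 71.5 ± 2.16% and 65.1 ± 1.62%. The level of TUBB itself was called in neither line with all libraries. Its MeWo mean was 944 without and 1199 with Dox (limma log2 change 0.33, adjusted p 0.109), so there the share alone was lower. TUBB2A and TUBB2B together held 6.54 ± 0.492% and 13.2 ± 1.66% in MeWo, and 7.39 ± 0.248% and 12.8 ± 1.74% in SkMel28. The pair includes TUBB2B, whose values selected the set, so its share in MeWo is a description. TUBB2A alone held 6.07 ± 0.378% and 9.52 ± 0.647% in MeWo, and 7.22 ± 0.236% and 12.7 ± 1.71% in SkMel28. Dox and control libraries did not overlap in either line for these shares. With the pair left out of the pool the share of TUBB overlapped in both lines. It was then 67.7 ± 0.858% and 68.6 ± 4.23% in MeWo and 77.2 ± 2.52% and 74.7 ± 0.384% in SkMel28. The MeWo overlap rests on Dox replicate 1, which at 63.8% lay below every control. Dox replicates 2 and 3, at 70.95 and 71.2%, lay above every MeWo control (66.7 to 68.3%). The pair reached a like share in both Dox groups while the part of it that was TUBB2B did not, 3.72% ± 1.08 of the beta pool in MeWo Dox and 0.150% ± 0.0380 in SkMel28 Dox. TUBB3 had 7.79 ± 0.3696% and 7.08 ± 2.299% in MeWo, with overlap, and 2.57 ± 0.0749% and 4.67 ± 0.273% in SkMel28, without. The MeWo overlap of TUBB3 rests on Dox replicate 1, at 9.699% above every control (7.37 to 8.06%). Dox replicates 2 and 3, at 5.38 and 6.17%, lay below every control. Mean shares in the 4 groups were 10.97 to 11.9% for TUBB6, 5.37 to 9.61% for TUBB4B and under 1% for TUBB4A. For TUBB6 in MeWo, Dox replicate 1 at 14.97% lay above every control (11.46 to 12.53%). Replicates 2 and 3, at 9.46 and 8.47%, lay below. The TUBB4A share was 0.891 ± 0.122% and 0.382 ± 0.157% in MeWo, without overlap, and overlapped in SkMel28.

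**Figure D3:**
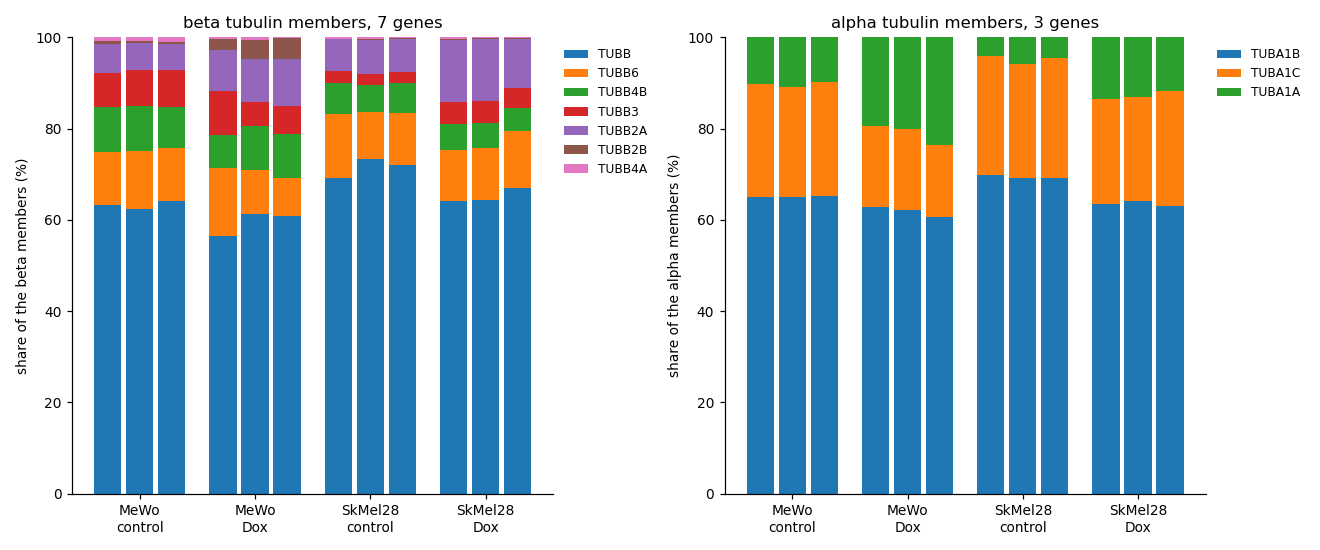
Share in percent (y axis) of each beta gene in the sum of the 7 beta genes (left) and of each alpha gene in the sum of the 3 alpha genes (right), 1 stacked bar per library in the order of replicates 1 to 3. TUBA1A widens with Dox in both lines, at 10.3 and 21.1% of MeWo without and with it and 4.85 and 12.8% of SkMel28, and TUBB2B holds 3.72% in MeWo Dox and under 1% in the other groups.

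The sums behind these shares were compared next. The alpha sum was 2590.1 ± 316 normalised reads in MeWo control and 2654 ± 399 in MeWo Dox, which overlapped. In SkMel28 it was 3393 ± 343 and 2744 ± 76.5, which did not. With the 3 alpha genes summed to 1 feature, limma called neither line (0.031, adjusted p 0.911 in MeWo and −0.302, adjusted p 0.157 in SkMel28). The beta sum was 1492 ± 68.7 and 2008 ± 265 in MeWo, with no overlap, and 2446 ± 212 and 2339 ± 324 in SkMel28, with overlap. The ratio of the alpha sum to the beta sum was lower with Dox in each line, 1.73 ± 0.132 against 1.32 ± 0.0829 in MeWo and 1.39 ± 0.02605 against 1.18 ± 0.122 in SkMel28, with no overlap. These are transcript sums over the genes named here, not amounts of tubulin protein.

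**Figure D4:**
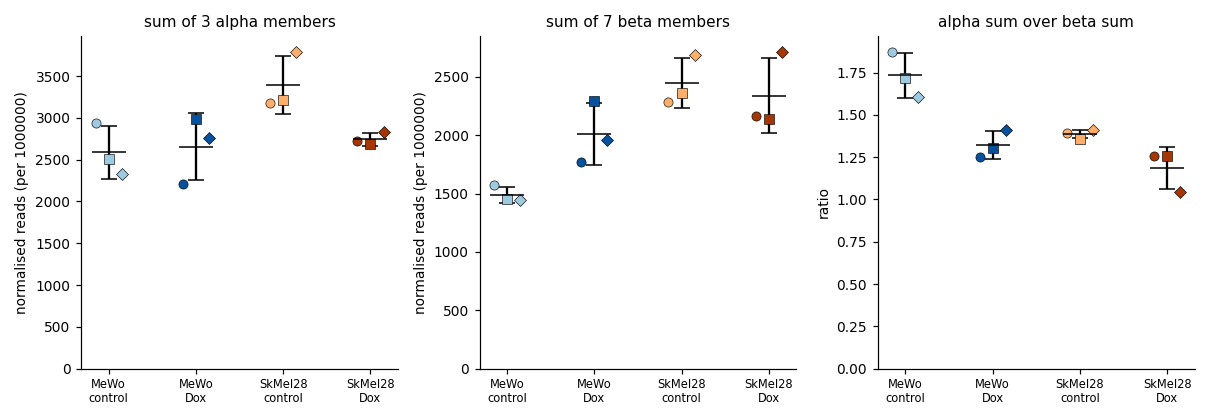
Sum of the 3 alpha genes, sum of the 7 beta genes (y axes, normalised reads per 1000000 from 0) and the ratio of the sums, with 1 point per library, the mean and a bar of 1 SD (n = 3). The mean ratio is 1.73 without and 1.32 with Dox for MeWo, and 1.39 and 1.18 for SkMel28.

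Other genes of the microtubule system were read from lists set by function, each given here with its count of called genes, against the 16.7% of genes called in MeWo and 10.9% in SkMel28. Counts at an unadjusted p have no such share of all genes beside them. Of 12 other tubulin genes 6 were listed (TUBA4A, TUBA3D, TUBG1, TUBG2, TUBD1 and TUBE1), and the call was TUBA3D, which fell in SkMel28 from 4 to 7 reads a library to 0 or 1 (edgeR called 1 gene and DESeq2 0). In MeWo limma, edgeR and DESeq2 called 0 of these, with 2 at an unadjusted p under 0.05, and without MeWo Dox replicate 1 limma called 2 lower. TUBA3D was chosen for mention after its values were seen. TUBG1, the gamma tubulin of the centrosome, stood at 67.7 ± 2.95 and 50.7 ± 2.51 in SkMel28 and was not called (adjusted p 0.113). Of 22 genes for tubulin folding, 4 were higher in MeWo (TBCA, TBCC, PFDN1 and PFDN5) and 1 was lower in SkMel28 (PFDN2). PFDN1, a prefoldin subunit, rose from 36.3 ± 2.76 to 61.4 ± 9.87 in MeWo (0.74, SE 0.14, adjusted p 0.001401) and kept its call under every alternative, whereas the calls of TBCC, PFDN5 and PFDN2 were each lost when any of 3 or more single libraries was left out. Of 4 genes for autoregulation of tubulin messages, limma, edgeR and DESeq2 called 0 in either line, and 1 in each had an unadjusted p under 0.05. Without MeWo Dox replicate 1 the folding genes gave 6 higher and 4 lower in MeWo and the autoregulation genes 1 lower, beside 31% of all genes called in that fit. Of 17 listed genes for tubulin modification, HDAC6, a tubulin deacetylase, was higher in MeWo (0.94, SE 0.24, adjusted p 0.0123). SVBP (−0.75, SE 0.25, adjusted p 0.0460) and AGTPBP1 were lower there, and TPGS2 was lower in SkMel28 (−0.54, SE 0.16, adjusted p 0.0332). The edgeR and DESeq2 tests each called 1 modifying enzyme in MeWo, HDAC6, and not SVBP or AGTPBP1. Of 12 genes for microtubule nucleation, MZT2A was higher in MeWo (0.74, SE 0.23, adjusted p 0.0357) and limma, edgeR and DESeq2 called 0 in SkMel28, where 1 had an unadjusted p under 0.05. Of these, HDAC6 lost its call without MeWo control replicate 3 or Dox replicate 2 or 3, and AGTPBP1, TPGS2 and MZT2A when any of 4 to 6 single libraries was left out. Without MeWo Dox replicate 1 the modifying enzymes gave 3 higher and 3 lower in MeWo, and the nucleation genes 4 higher and 1 lower.

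The microtubule-associated proteins included MAP2, which was called in both lines under every alternative. Of 23 listed, 5 were higher (MAP1B, MAP2, MAP4, CLASP1 and CLIP1) and 3 lower (CKAP5, TACC1 and DCLK1) in MeWo, and 6 were higher (MAP1B, MAP2, CLASP1, TACC2, CAMSAP2 and DCX) in SkMel28. MAP2, a stabiliser of dendritic microtubules, rose in MeWo from 4.86 ± 1.17 to 18.1 ± 1.84 (1.72, SE 0.17, adjusted p 1.74e-06) and in SkMel28 from 37.01 ± 0.9804 to 133 ± 3.42 (1.82, SE 0.17, adjusted p 2.12e-06). CLASP1, which stabilises plus ends, rose from 25.9 ± 2.61 to 66.3 ± 14.2 in MeWo (1.31, SE 0.19, adjusted p 1.15e-04). MAP1B, a protein of growing axons, rose from 5.43 ± 2.96 to 12.7 ± 0.576 in SkMel28 (1.18, SE 0.31, adjusted p 0.0182), a call lost without SkMel28 control replicate 1 or 2 or any 1 SkMel28 Dox library. DCLK1, a doublecortin-like kinase, fell from 18.03 ± 0.628 to 6.64 ± 4.14 in MeWo (−1.46, SE 0.31, adjusted p 0.00352), a call lost with MeWo fitted alone. TACC2, a centrosomal protein, went from 0.896 ± 0.682 to 3.696 ± 0.725 in SkMel28 (1.36, SE 0.29, adjusted p 0.00553). That control mean is at the floor of 3 reads (0.835 to 1.17 normalised reads), and TACC2 reached a mean of 10 in MeWo only. Of 13 listed destabilisers, STMN3 and KIF2A were higher and KATNAL1 lower in MeWo, and STMN1 and FIGNL1 were lower in SkMel28. STMN3, a neuronal stathmin, rose from 13.6 ± 3.38 to 31.7 ± 3.17 in MeWo (1.19, SE 0.19, adjusted p 2.92e-04). STMN1, the stathmin of dividing cells, fell from 834 ± 47.8 to 619 ± 24.2 in SkMel28 (−0.43, SE 0.101, adjusted p 0.00999), a call lost without SkMel28 control replicate 3 or Dox replicate 1. The KIF2A call was lost in 10 of the 12 fits that left out a library.

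Mitosis genes that were called fell in both lines. Of 24 listed, 4 were lower in MeWo (CCNB1, AURKA, AURKB and KIF11) and 12 in SkMel28, beside 8.12% and 5.04% of all genes called lower. In MeWo that share was near the 16.7% of all genes called in either direction. The median log2 changes of the 24 were −0.20 and −0.51, against 0 and 0.0029 over all genes. AURKB, a kinase of the chromosome passenger complex, fell in MeWo from 152 ± 16.2 to 75.3 ± 13.9 (−1.02, SE 0.17, adjusted p 3.34e-04) and in SkMel28 from 165 ± 22.9 to 86.6 ± 17.7 (−0.93, SE 0.17, adjusted p 0.00114). AURKA, a spindle pole kinase, fell in MeWo from 82.1 ± 7.08 to 41.4 ± 12.9 (−1.01, SE 0.18, adjusted p 6.78e-04) and in SkMel28 from 167 ± 20.3 to 91.3 ± 8.39 (−0.86, SE 0.18, adjusted p 0.003696). The AURKA call in MeWo was lost with that line fitted alone. Without MeWo Dox replicate 1 the counts lower were 6 and 15, beside 31% and 16.2% of all genes called.

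Of 14 listed genes of the neuronal cytoskeleton and neurites, 4 were higher (GAP43, DPYSL3, CRMP1 and MARCKSL1) and 1 lower (L1CAM) in MeWo, and DPYSL2 was higher in SkMel28. MARCKSL1, an actin regulator, rose from 63.3 ± 5.46 to 169 ± 43.5 in MeWo (1.37, SE 0.18, adjusted p 4.95e-05). CRMP1, a collapsin response mediator that binds tubulin, rose there from 14.1 ± 0.739 to 33.2 ± 4.57 (1.17, SE 0.23, adjusted p 0.00178). L1CAM, an adhesion molecule of axons, fell from 227 ± 16.3 to 117 ± 41.2 (−1.01, SE 0.204, adjusted p 0.00227), a call lost with MeWo fitted alone. DPYSL2, a relative of CRMP1, rose from 11.98 ± 1.09 to 26.7 ± 4.49 in SkMel28 (1.08, SE 0.16, adjusted p 2.61e-04). Without MeWo Dox replicate 1 the counts in MeWo stayed at 4 higher and 1 lower. CRMP1 and GAP43 had 0 reads in all 6 SkMel28 libraries, and GAP43 also in the MeWo controls against 2.87, 7.201 and 3.05 in MeWo Dox, so their calls describe MeWo alone. Of 24 listed genes of actin and intermediate filaments, 2 were higher and 2 lower in MeWo (TAGLN2, CNN3, MYH10 and TPM3) and 3 were higher and 2 lower in SkMel28 (MYL6, VIM, MYH10, ACTN1 and ACTN4). TAGLN2, an actin-binding protein, rose from 455 ± 36.6 to 1391 ± 699 in MeWo (1.44, SE 0.31, adjusted p 0.00371), a call lost with MeWo fitted alone. ACTN4, an actin crosslinker, fell from 2996 ± 360.3 to 1997 ± 67.6 in SkMel28 (−0.58, SE 0.12, adjusted p 0.00467).

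The difference in response between the lines was called for 1 of 22 folding genes (PFDN5, 1.08, SE 0.28, adjusted p 0.0294), 2 of 12 nucleation genes (MZT2A and MZT2B), 1 of 23 microtubule-associated proteins (CLIP1), 5 of 14 neuronal genes (DPYSL2, L1CAM and MARCKSL1, and CRMP1 and GAP43, with 0 reads in SkMel28) and 5 of 24 actin and filament genes (ACTN1, ACTN4, MYH10, TAGLN2 and VIM), beside 7.09% of all genes. MARCKSL1 differed by 0.99, SE 0.26, adjusted p 0.0297, and DPYSL2 by −1.11, SE 0.23, adjusted p 0.00805. In the other lists limma called 0, with 1 of 4 autoregulation genes, 5 of 17 modifying enzymes, 5 of 13 destabilisers, 8 of 24 mitosis genes and 0 of 6 other tubulins at an unadjusted p under 0.05, where edgeR called 0 and DESeq2 called 2 modifying enzymes and 1 mitosis gene. The 7.09% refers to adjusted p, and no share of all genes at the unadjusted threshold is given here to set beside these counts.

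**Figure D5:**
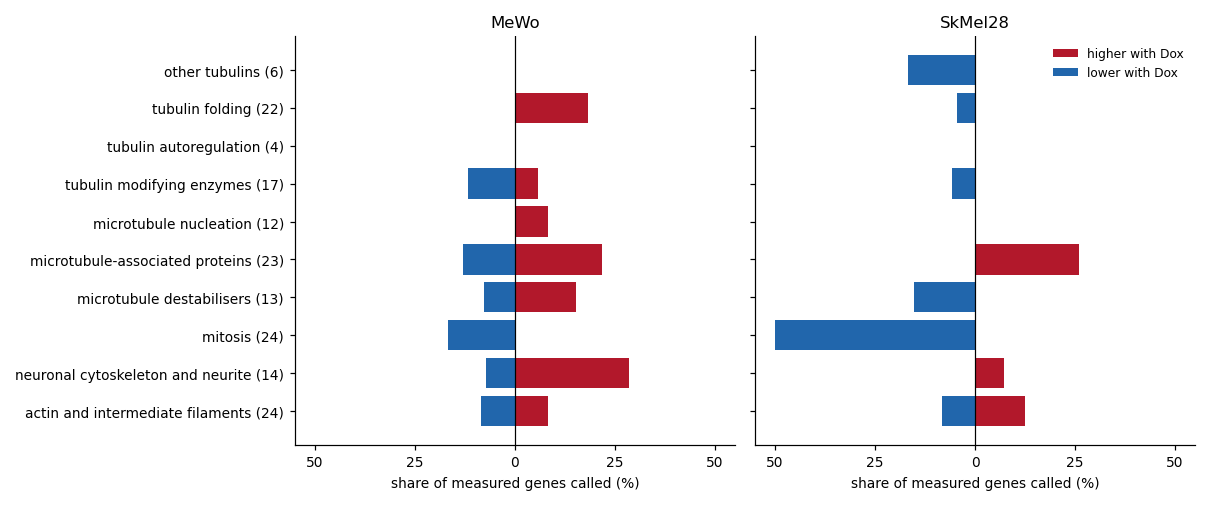
Share in percent (x axis) of the listed genes of each group that limma called higher (red, right of 0) or lower (blue, left of 0) with Dox, in MeWo and SkMel28, with the number of genes measured in brackets. The longest bar is that of the 12 of 24 mitosis genes lower in SkMel28, and 6 of 23 microtubule-associated proteins lie on the higher side there.

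The genes whose pattern was most like that of TUBB2B over the 12 libraries, among 9016 genes with a mean of 10 or more in a group, were PIGM (Pearson r 0.981), DLG4 (0.973), PLEKHA4 (0.970), TBX2 (0.967) and ZNF219 (0.966). The libraries form 4 groups, so these coefficients are a description. TBX2, a transcription factor of the melanocyte lineage, had means of 44.2 ± 6.68 in MeWo control and 172 ± 53.9 in MeWo Dox, and of 25.3 ± 2.71 and 29.5 ± 2.18 in SkMel28. DLG4, a scaffold of synapses, had means of 16.8 ± 4.09 and 83.03 ± 28.3 in MeWo and 7.001 ± 2.29 and 5.42 ± 1.39 in SkMel28. Those most like TUBB3 were IFITM3 (0.984), IRS2 (0.973), LPCAT2 (0.963), TBL1X (0.960) and CREB5 (0.952). IRS2, an adaptor of insulin signalling, had means of 479.5 ± 4.63 and 556 ± 57.2 in MeWo and 204 ± 21.8 and 442 ± 10.7 in SkMel28, without and with Dox. IFITM3, an interferon-induced membrane protein, had 104 ± 2.64 and 133 ± 53.2 in MeWo and 35.8 ± 2.498 and 79.8 ± 9.49 in SkMel28.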

How the data were processed

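Total RNA from 12 libraries was sequenced from the 3′ end (QuantSeq Forward, read 1 used), and RNA with an integrity number over 9.5 was selected. The submitters' processing notes name FastQC 0.11.7, cutadapt 2.8, STAR 2.5.1b, edgeR and the hg38 build, and the counting tool, annotation and strand setting are not given in the sources used here. The deposited table holds a signal that the authors made from gene reads with edgeR: reads divided by the effective library size, per 1000000. Values came out as whole reads in 100% of cases at a tolerance of 0.1. Spike-ins (67 of 12683 features, 5.69 to 8.55% of reads) were left out, so 12616 genes were tested.

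Groups came from the labels. The fixed design assumed normalised values, so limma 3.58.1 (R 4.3.3) was fitted to log2(value + 1) as 4 group means over all 12 libraries, with a mean-variance trend, two-sided, with Benjamini-Hochberg adjustment over all genes and a threshold of 0.05. TUBB2B, selected on its values, was not tested. Members, lists and tests were chosen with earlier results of these data known. From each list, up to 3 called genes a line with the largest change and a mean of at least 10 in a group could be described with values, and other called genes are named or counted. Likeness to TUBB2B and TUBB3 was Pearson's r of log2(value + 1). Alternatives were edgeR 4.0.16 (quasi-likelihood) and DESeq2 1.42.0 on recovered reads, 3 other scalings, pseudocounts of 0.1 and 5, a filter (5 in 3 libraries), no trend, a replicate block, each line alone, near-identical members summed and each library left out. The edgeR test called 2043 genes in MeWo, 1419 in SkMel28, 799 for the difference in response and 6442 between the controls, against 2107, 1378, 894 and 6485 by limma. The coding ends of the alpha genes are not reported here. Same-numbered control and Dox libraries did not deviate together in MeWo (r −0.305, −0.0726 and 0.0474), and in SkMel28 the values were mixed (r −0.105, 0.12 and 0.289). The numbers were not taken as pairs, and the replicate block was fitted as an alternative. A read was worth 0.278 to 0.389 and 3 reads, the floor, 0.835 to 1.17, and these limits cover counting error only.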

Additional observations from a re-analysis of the deposited data

How the results depend on the processing

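The rises of TUBB2A and TUBA1A in both lines and of TUBB3 in SkMel28 kept their calls in every alternative that tested the gene alone. Leaving out 1 library gave 2 to 5 called members of 9 in MeWo (5 without Dox replicate 1), 3 to 5 in SkMel28, 0 to 5 for the difference in response (5 without MeWo Dox replicate 1) and 6 to 8 between the controls. SkMel28 had 3 called members, with TUBA1B and TUBA1C lost, with a replicate block (adjusted p 0.0567 and 0.0692, changes −0.43), without the trend (0.115 and 0.1396, −0.43) and with spike-in scaling (0.0902 and 0.0729, −0.53), and the block changed no other member's call. Spike-in scaling gave 2 called differences in response, TUBB (0.91, adjusted p 0.0199) and TUBB4B (0.97, adjusted p 0.0231), and moved the median of all genes by 0.22 in MeWo and −0.079 in SkMel28. With it TUBA1B in MeWo was 0.23, and the differences in response of TUBA1A and TUBA1C were 0.32 and 0.305. The 3 alpha genes summed gave 0.031 in MeWo, −0.30 in SkMel28, 0.33 for the difference in response and 0.39 between the controls. Single libraries turned signs of changes that were not called: TUBA1B in MeWo ran from −0.14 to 0.070, TUBB4A in SkMel28 from −0.17 to 0.19, TUBB6 in SkMel28 from −0.24 to 0.0038, and the differences in response of TUBA1A from −0.17 to 0.13 and of TUBA1C from −0.19 to 0.035. Counts over all genes left the range of 1.5 times with each line alone (813 in MeWo), for the difference in response with spike-in scaling (1519) and without the trend (554), and with a library left out (1281 to 3913 in MeWo, 784 to 2042 in SkMel28 and 449 to 3115 for the difference in response). The cause was not tested. TUBB2B in SkMel28 and TUBB4A rest on 10 to 46 reads a library.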

Other observations

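TUBBP5, a beta tubulin pseudogene that the symbol rule does not take in, was named after its values were seen. It fell in both lines, with means of 5.96 ± 0.603 without and 1.98 ± 0.584 with Dox in MeWo and 20.1 ± 4.94 and 7.28 ± 1.41 in SkMel28 (limma log2 change −1.24, adjusted p 0.00241, and −1.34, adjusted p 0.00193), a direction opposite to that of TUBB2A and TUBA1A in the same libraries. The MeWo values rest on 14 to 23 reads a library without Dox and 5 to 7 with it. Whether reads of TUBBP5 can be separated from those of other tubulin genes was not checked.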
